A study of Mus musculus with 13 samples.

Results

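Cdkn2a, Cdkn2b, Mtap and Klhl9 lie together on mouse chromosome 4, in a stretch that many tumours lose. They are described here in 13 mammary tumour cell lines, along with Cdkn2c, Cdkn2d, Cdkn1b, Cdkn1c and Rb1, which act on the same cell cycle step from other places in the genome. The 9 genes were taken by their symbols from the deposited tables of 23845 genes, and all 9 had enough reads to be tested. They were selected on their measured levels in these same lines, because some lines lacked transcripts of the chromosome 4 genes. For those 4 genes the levels are therefore a description and no p-value is given. On GRCm38.p6, Klhl9 starts at position 88718292 of chromosome 4, Mtap at 89137370, Cdkn2a at 89274473 and Cdkn2b at 89306289. Cdkn2c lies farther along the same chromosome, Cdkn1b on chromosome 6, Cdkn1c on 7, Cdkn2d on 9 and Rb1 on 14.

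The cells were primary mammary tumour lines of the mouse strain FVBN/J, grown in DMEM/F12 with serum, EGF and insulin. The labels give 6 lines as wild type (WT) and 7 as JNK knockout, with no drug and no time course. JNK stands for c-Jun N-terminal kinase, a stress-activated MAP kinase. The series title places the study in HER2-driven breast cancer, but the labels name no oncogene allele, no Cre line and no JNK gene or exon, and they give no age, passage or batch. Lines are named WT 1 to 6 and knockout 1 to 7 in the order of the record, which pairs nothing between the groups. The titles of WT 4 and WT 5 share a number, and the labels do not say whether these came from 1 animal, so a p-value here covers the spread among lines and no more. Bulk RNA cannot tell fewer cells with a transcript from less transcript per cell.

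In cells, growth signals raise cyclin D, which with CDK4 or CDK6 phosphorylates RB, the product of Rb1, and so frees E2F factors to switch on the genes of DNA replication. The INK4 inhibitors, made from Cdkn2a, Cdkn2b, Cdkn2c and Cdkn2d, bind CDK4 and CDK6 and stop this step. The CIP/KIP inhibitors, made from Cdkn1a, Cdkn1b and Cdkn1c, also act on cyclin E with CDK2. Cdkn2a has separate first exons for a pair of proteins, INK4A (p16) and ARF (p19 in the mouse), and ARF keeps MDM2 from degrading p53. Mtap encodes the enzyme that salvages methionine from a by-product of polyamine synthesis, and Klhl9 encodes an adaptor of a CUL3 ubiquitin ligase that acts in mitosis.

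The counts are per gene, so transcripts of INK4A and of ARF were summed and cannot be told apart here. Each has its own promoter, and Cdkn2b has another nearby. RefSeq promoter windows on GRCm38.p6 matched 7 of the 9 genes, with none for Cdkn1c and Rb1. The windows of the INK4 genes of the locus are shown, since all 3 starts lie in the stretch that was silent or low in single lines. Each is 215 bases of the minus strand, 5′ to 3′, and ends 35 bases before the RefSeq start of transcription. Capitals mark a GC box (GGGCGG), an E2F motif (TTNGCGC) or a cAMP response element (TGACGTNA).
Cdkn2a, start used for ARF, chr4:89294655-89294869: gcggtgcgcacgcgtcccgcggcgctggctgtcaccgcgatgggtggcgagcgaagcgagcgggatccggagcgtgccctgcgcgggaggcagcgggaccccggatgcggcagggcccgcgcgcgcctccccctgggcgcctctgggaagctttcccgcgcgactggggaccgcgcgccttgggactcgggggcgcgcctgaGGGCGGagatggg
Cdkn2a, start used for INK4A, chr4:89282228-89282442: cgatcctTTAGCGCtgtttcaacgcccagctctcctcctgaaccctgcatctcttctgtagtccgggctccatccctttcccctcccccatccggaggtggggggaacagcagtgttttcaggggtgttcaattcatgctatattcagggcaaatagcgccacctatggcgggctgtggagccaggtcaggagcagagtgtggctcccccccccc
Cdkn2b, chr4:89311068-89311282: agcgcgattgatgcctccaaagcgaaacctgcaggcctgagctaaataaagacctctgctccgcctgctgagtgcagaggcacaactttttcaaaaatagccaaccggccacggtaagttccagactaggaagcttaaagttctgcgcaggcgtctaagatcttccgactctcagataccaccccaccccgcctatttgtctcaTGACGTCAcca

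The window before the ARF start was the richest in G and C of these, at 78.6%, against 59.5% before the INK4A start, 52.1% before Cdkn2b and a median of 51.6% over all promoter windows. Its GC box began 48 bases before the start, and 27.7% of the 32851 RefSeq windows of this length hold such a box on either strand. The E2F motif lay 243 bases before the INK4A start, and 4.27% of all windows hold one. The cAMP response element lay 46 bases before the Cdkn2b start, and 1.86% of all windows hold one. The AP-1 motif TGANTCA, the element bound by JUN and FOS dimers, was also searched on both strands. It was found in 5.97% of all windows and in none of the 9 windows of the 7 genes. These matches are letters in a window and were not tested for function.

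Depth was even over the lines, at 38298603 to 46689811 counts in each, and 12595 to 13434 genes had at least 10 counts. Levels are given as CPM, counts scaled for the depth and composition of a library. TPM, which is also scaled for transcript length, is used where genes are compared with each other. Of the JNK genes, Mapk8 was at 29.8 ± 5.38 CPM (SD, n = 6) in WT and 5.76 ± 1.32 (SD, n = 7) in knockout lines, and Mapk9 at 60.02 ± 6.59 and 19.3 ± 5.11. Both were lower in 7 of 7 knockout lines than in any WT line. Summed epithelial markers (8 genes, among them Epcam, Krt8 and Krt18) ranged from 6546 to 7899 CPM in WT and from 1132 to 6154 in knockout lines, with knockout 2 the lowest. In that list edgeR called 0 of 8 genes higher and 2 lower, Krt8 (log2 ratio -0.97, adjusted p = 0.047) and Krt18 (-1.26, adjusted p = 0.0026). Over all genes tested, 4.17% were called lower. Krt7 went the other way without a call, at 0.998 (adjusted p = 0.33), with 5 of 7 knockout lines above every WT line. Endothelial markers were under 1 CPM per gene in every line. Leukocyte markers summed to 2.77 to 19.0 CPM in WT and 2.49 to 13.4 CPM in knockout lines. Most of this was Cd68, at 2.16 to 18.7 CPM, while Csf1r reached 6.32 CPM and Ptprc, the pan-leukocyte marker, stayed under 1 CPM. Fibroblast markers summed to 11.8 to 321 CPM in WT, with WT 3 the highest, and to 2.82 to 55.5 in knockout lines.

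WT 2 held almost no transcripts of the locus. Cdkn2b and Klhl9 had 0 counts in this line, which allows up to 0.0702 CPM (3 counts), Cdkn2a had 2 counts and Mtap had 5. Knockout 6 was the other line apart, with low but plainly counted transcripts of the same 4 genes. Its counts were 187 for Cdkn2a, 188 for Cdkn2b, 780 for Mtap and 256 for Klhl9. As a percentage of the median of the other knockout lines, these came to 3.39% for Cdkn2a, 7.33% for Cdkn2b, 6.94% for Mtap and 4.02% for Klhl9. In the remaining 11 lines the 4 genes had between 549 and 16750 counts.

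**Figure D1:**
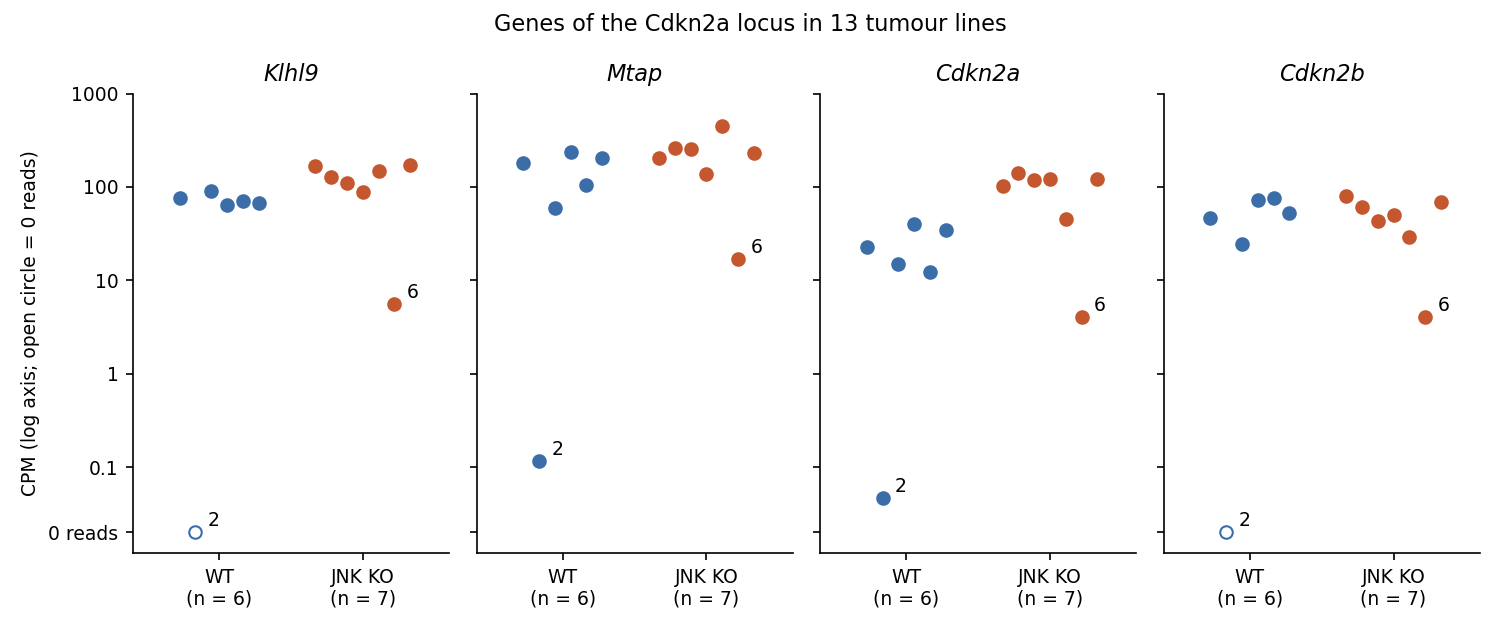
Levels of Klhl9, Mtap, Cdkn2a and Cdkn2b in CPM (log axis) in the 6 WT lines (blue) and 7 JNK knockout lines (orange). Each point is a line, an open circle stands for 0 counts, and the numbers mark WT 2 and knockout 6, which lie below the others in all 4 genes.

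Cdkn2a, whose products INK4A and ARF restrain CDK4/6 and MDM2, had a lowest, median and highest level of 0.05, 18.8 and 40.0 CPM in WT lines, and of 4.05, 118 and 139 CPM in knockout lines. WT 2 and knockout 6 were the lowest of their groups, and the next lowest were WT 5 at 12.2 CPM and knockout 5 at 45.4 CPM. The other 6 knockout lines lay above every WT line in CPM, where the groups overlapped only through knockout 6. By library size alone, knockout 5 came below WT 4 (40.6 against 41.4 CPM). In TPM it came below WT 4 and WT 6 (69.5 against 103 and 81.8). Mean levels were 20.7 ± 14.8 CPM (SD, n = 6) in WT and 93.2 ± 49.4 (SD, n = 7) in knockout lines, a log2 ratio of knockout over WT of 2.17 (SE 0.89). Without WT 2 it was 1.91 (SE 0.64), without knockout 6 2.39 (SE 0.79), and without both 2.12 (SE 0.37). Here and below, both lines were left out because of their low levels of the locus genes. The smaller errors follow from that choice and are no test of a genotype difference.

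Cdkn2b, which encodes the TGF-beta responsive inhibitor p15, starts next to Cdkn2a but did not show that separation. Its lowest, median and highest levels were 0, 49.6 and 76.7 CPM in WT lines and 4.07, 49.6 and 80.1 CPM in knockout lines. Only knockout 1 lay above every WT line. The means were 45.3 ± 29.1 CPM (SD, n = 6) and 48.0 ± 25.7 (SD, n = 7), with a log2 ratio of 0.08 (SE 0.88), and of 0.02 (SE 0.31) without WT 2 and knockout 6. The difference took either sign when single lines were left out, from -0.18 without WT 2 to 0.29 without WT 5.

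Mtap, the methionine salvage enzyme, reached 0.12, 142 and 235 CPM as lowest, median and highest in WT lines, and 16.9, 229 and 453 in knockout lines. WT 3 and WT 5, at 59.4 and 104 CPM, were the next lowest WT lines after WT 2. Knockout 5, which had little Cdkn2a and Cdkn2b for its group, had the most Mtap of all 13 lines. The log2 ratio was 0.77 (SE 0.90), and 0.71 (SE 0.37) without WT 2 and knockout 6.

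Klhl9, the ubiquitin ligase adaptor, was the most even of the 4 among the other WT lines, which spanned 63.6 to 89.5 CPM against 0 in WT 2. Knockout lines had 5.54, 129 and 173 CPM as lowest, median and highest. The lowest was knockout 6, and 5 of 7 knockout lines lay above every WT line. The log2 ratio was 0.93 (SE 0.90), and 0.88 (SE 0.18) once WT 2 and knockout 6 were left out. As for Cdkn2a, the smaller error follows from leaving out the lines chosen for their low levels.

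The profiles of the locus genes over the 13 lines are given as a description. The genes were selected for low levels in single lines, and the values of WT 2 and knockout 6 weigh heavily in the measure used. Likeness was the root mean square difference of log2 CPM after each gene was centred on its own mean, over all tested genes. For Mtap the closest genes were Klhl9 (0.70), Cdkn2b (0.78) and Cdkn2a (1.00), and for Cdkn2b they were Klhl9 (0.73), Mtap (0.78) and Cdkn2a (1.14). For Cdkn2a they were Mtap (1.00), the X-linked glutamate receptor gene Gria3 (1.02) and Klhl9 (1.06), and a typical tested gene was 2.83 away. Gria3 was also under 10 counts in WT 2.

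A silent gene was rare in any line. Of 9210 genes with a median of at least 10 CPM over the lines, WT 2 had 12 under 10 counts, and 4 of these were Cdkn2a, Cdkn2b, Mtap and Klhl9. The other lines had 0 to 13 such genes, and none of those was one of the 4. Knockout 6 had 0. The genes of the locus were thus near silent in WT 2, and reduced but above 10 counts in knockout 6.

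The stretch of low transcripts differed between these lines. Within 5 Mb of the Cdkn2a start, 16 of 57 listed genes had enough reads to be tested. In WT 2, the 6 tested genes from Klhl9 to Tusc1 in a row (Klhl9, Gm12603, Mtap, Cdkn2a, Cdkn2b and Tusc1) had fewer than 10 counts, over a span of 4.62 Mb from 88718292 to 93335511. Tusc1, an intronless gene with few reads in all lines, was at 0 in WT 2 and had a median of 3.31 CPM in WT lines. Cdkn2b ends at 89311032, and the rest of the span rests on Tusc1 alone, with no tested gene between them. The next tested gene before Klhl9, Ptplad2, was at 217% of the median of the other WT lines in WT 2. Beyond it Focad was at 39.6%, Mllt3 at 42.0% and Acer2 at 9.36%. Low Focad was not particular to WT 2, as it was at 41.3% in WT 3 and 38.9% in WT 5. Mllt3 was at 54.9% in WT 5 but 123% in WT 3.

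In knockout 6 the low stretch began earlier and ended sooner. It held 8 tested genes from Mllt3 to Cdkn2b, at 2.20% to 7.33% of the median of the other knockout lines, over 1.54 Mb from 87769925 to 89311032. Acer2, the next tested gene before Mllt3, was at 18.2%, so the start depends on the cut-off. Acer2 was lower still in knockout 2, at 9.87%. That the stretch ended sooner rests on Tusc1 alone, which stood at 89.7% in this line. No gene between Cdkn2b and Tusc1 was tested. Klhl9, Gm12603, Mtap, Cdkn2a and Cdkn2b were low in both lines. Gm12603, which lies between Klhl9 and Mtap, was also nearly absent from WT 3 and WT 5, with 2 and 4 counts. Acer2, Mllt3, Focad and Ptplad2 were singled out after their values were seen.

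**Figure D2:**
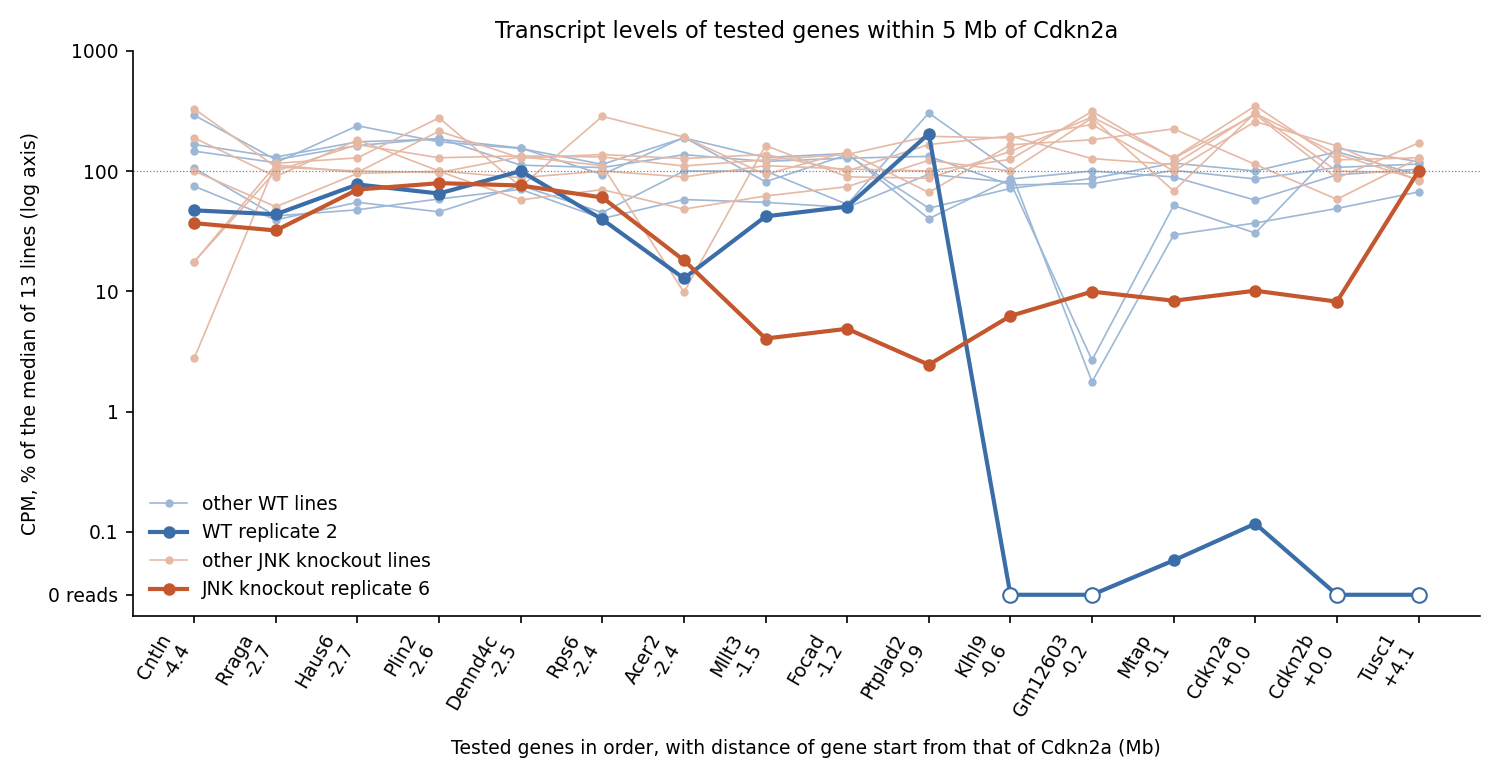
CPM of the 16 tested genes within 5 Mb of the Cdkn2a start, as a percentage of the median of the 13 lines (log axis), in chromosome order with the distance from Cdkn2a in Mb. Thick lines are WT 2, at or near 0 from Klhl9 to Tusc1, and knockout 6, at low levels from Mllt3 to Cdkn2b, and open circles are 0 counts.

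Runs of this kind were looked for over the whole genome, by a rule set after the locus had been seen. Among genes with a median of at least 2 CPM, runs of 3 or more neighbours under 10 counts occurred in only 2 places, these 6 genes in WT 2 and the keratin genes Krt6b, Krt6a and Krt5 in WT 3. Under 15% of the median of the 13 lines, the longest runs in any line were the 8 genes of knockout 6 and the 6 of WT 2, and the rest held 3 or 4 genes.

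Levels changed on a larger scale at the locus as well. Genes were compared along chromosome 4 by each line's level as a percentage of the gene's median over the 13 lines, a description added after the data were seen. Over 175 genes more than 5 Mb before Cdkn2a, the median was 57.5% in WT 5, 59.9% in knockout 6, 60.3% in WT 3 and 72.8% in WT 2. The other 9 lines were at or above the 13-line median there and reached 117% in knockout 4. In WT 2 the low part did not reach the start of the chromosome, as genes 5 to 50 Mb before Cdkn2a stood at 62.4% and the 56 genes farther away at 121%.

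Past Cdkn2a the order of lines was another. Over 351 genes more than 5 Mb beyond it, WT 2, WT 3, WT 5 and knockout 6 stood at 88.2%, 86.1%, 90.4% and 96.5%, close to WT 1, WT 4 and WT 6 at 90.3%, 89.1% and 92.1%. Knockout 2, 3, 1 and 7 were high, at 163%, 154%, 136% and 129%, and knockout 4 and 5 stood at the median and at 98.4%. Over 8636 genes of other chromosomes every line had a median of 99.3% to 101%. In knockout 4, genes within 30 Mb before Cdkn2a stood at 70.5% to 74.9% in 3 bins of 4 to 16 genes. The level of the locus genes followed this only in part, since Klhl9 in WT 3 and WT 5 was at 101% and 80.5% of its median, Mtap at 29.4% and 51.7%, and Cdkn2a at 37.0% and 30.5%. DNA of the lines was not analysed here.

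**Figure D3:**
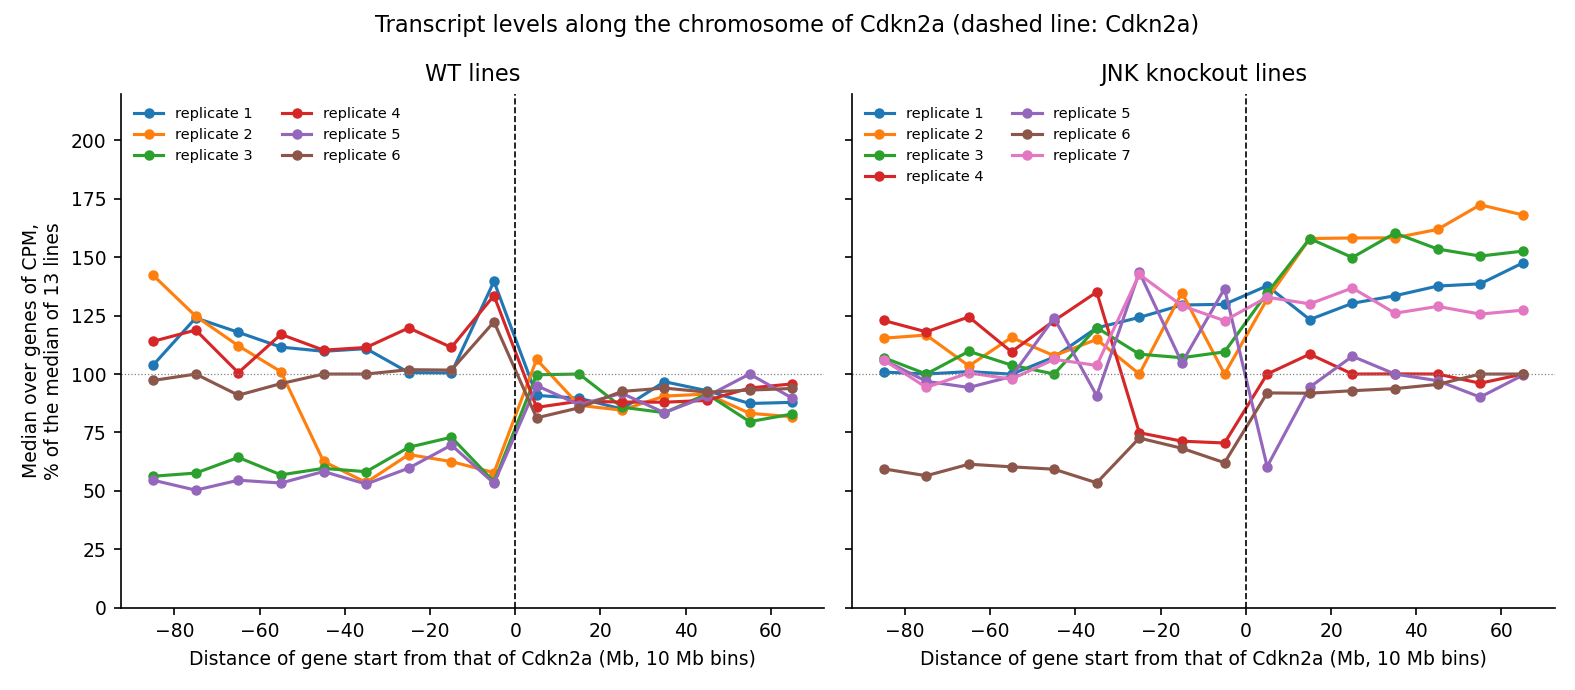
Median level of genes along chromosome 4 in 10 Mb bins of distance from Cdkn2a (dashed line), as a percentage of each gene's median over 13 lines, with WT lines on the left and JNK knockout lines on the right. WT 3, WT 5 and knockout 6 are low up to Cdkn2a and WT 2 over its last 50 Mb, and knockout 2 and 3 are highest beyond it.

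The INK4 genes can be set beside each other in TPM. The 4 of them summed to 106 to 293 TPM in WT lines, with the lowest in WT 2, and to 125 to 463 TPM in knockout lines, with the lowest in knockout 6. In 6 of 7 knockout lines Cdkn2a gave the most of the 4, at 41.5% to 74.2% of the sum, and knockout 6 was the exception at 7.57%. In WT lines its part was 14.4% to 36.9% outside WT 2, where it was 0.12%. WT 2 was left with Cdkn2c at 48.2% and Cdkn2d at 51.7% of its INK4 sum, and knockout 6 with Cdkn2c at 64.3% and Cdkn2d at 23.6%.

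**Figure D4:**
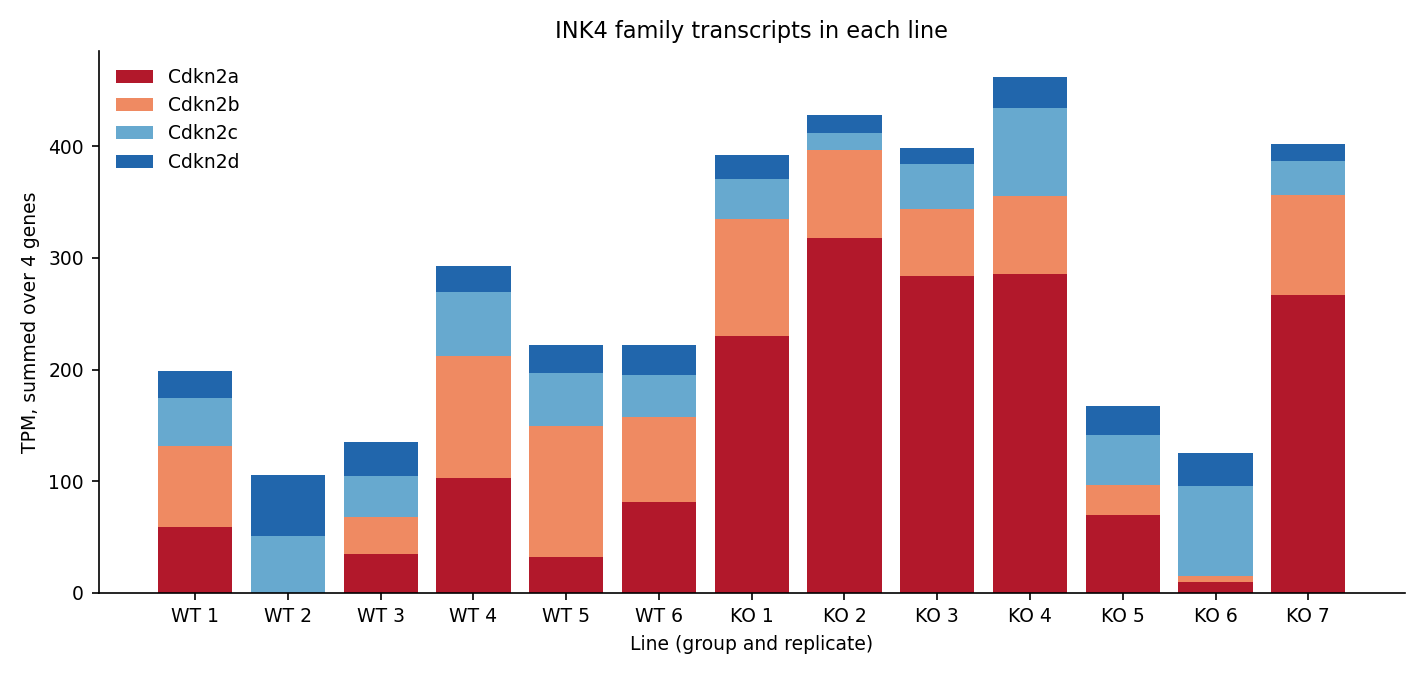
TPM of Cdkn2a, Cdkn2b, Cdkn2c and Cdkn2d stacked for each of the 13 lines. WT 2 has only Cdkn2c and Cdkn2d at a visible height, knockout 6 has mostly Cdkn2c, and Cdkn2a is the largest part in the other 6 knockout lines.

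By median TPM, the order in WT lines was Mtap (111), Cdkn2b (73.9), Cdkn1b (71.8), Cdkn2a (47.005), Cdkn2c (45.4), Klhl9 (30.5), Cdkn2d (26.1), Rb1 (9.47) and Cdkn1c (1.12). Cdkn2c was above Klhl9 and Rb1 above Cdkn1c in 6 of 6 lines, but Cdkn2b exceeded Cdkn1b in only 4, Cdkn1b exceeded Cdkn2a in 3 and Cdkn2a exceeded Cdkn2c in 3. These neighbours in the order changed places between lines. In knockout lines the order was Cdkn2a (267), Mtap (147), Cdkn2b (69.6), Klhl9 (44.7), Cdkn2c (40.7), Cdkn1b (30.8), Cdkn2d (21.5), Rb1 (12.98) and Cdkn1c (0.84). Mtap was above Cdkn2b, and Cdkn1b above Cdkn2d, in 7 of 7 lines, while Klhl9 exceeded Cdkn2c and Cdkn2c exceeded Cdkn1b in only 4.

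None of the 5 genes outside the locus was called different between the genotypes by edgeR's quasi-likelihood test at an adjusted p of 0.05, against 8.51% of the 13058 genes tested (4.33% higher and 4.17% lower in knockout lines). Of these 5, 1 (Cdkn1b) had an unadjusted p under 0.05. DESeq2 and limma-voom called 0 of these 5, and limma on TPM called 1, again Cdkn1b.

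Cdkn2c, which encodes the INK4 inhibitor p18, lies on chromosome 4 from 109660876 to 109666756, past the low stretch of WT 2 and of knockout 6. WT lines had 33.6, 36.7 and 45.5 CPM as lowest, median and highest, and knockout lines 15.6, 39.5 and 66.2. WT lines were close together and lay inside the range of the knockout lines, whose extremes were knockout 2 and knockout 6. The log2 ratio was 0.14 (SE 0.28, adjusted p = 0.78), and it turned to -0.13 on the TPM scale. Among 80 neighbours within 10 Mb the median was 162% of the 13-line median in knockout 2 and 92.2% in knockout 6. Cdkn2c itself stood at 42.2% and 179% there, so it did not share the order of its surroundings.

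Cdkn2d, the gene of p19 INK4D on chromosome 9, had 13.5, 15.8 and 32.1 CPM as lowest, median and highest in WT lines and 9.29, 14.6 and 25.1 in knockout lines. WT 2, which had almost no Cdkn2a or Cdkn2b transcripts but 45.5 CPM of Cdkn2c, had the highest Cdkn2d level of the 13 lines. The log2 ratio was -0.27 (SE 0.28, adjusted p = 0.58), and without WT 2 it came to -0.04 (SE 0.26).

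Cdkn1b encodes p27, which holds cyclin E with CDK2 inactive and is mostly controlled by protein turnover. Its lowest, median and highest levels were 61.4, 92.5 and 113 CPM in WT lines and 34.5, 46.5 and 115 CPM in knockout lines. Below every WT line lay 6 of 7 knockout lines, and knockout 6 was above all 6 WT lines, though by library size alone it came below WT 5 (117 against 118 CPM). The means were 88.1 ± 22.9 CPM (SD, n = 6) and 54.5 ± 27.4 (SD, n = 7), a log2 ratio of -0.69 (SE 0.27, adjusted p = 0.12). The edgeR call depended on knockout 6, the line that stood apart in Cdkn1b. Without it the log2 ratio was -0.98 (SE 0.18, adjusted p = 0.0089), and without WT 2 as well it was -0.93 (adjusted p = 0.017). Leaving out the line that stands apart shrinks the error by that choice. These 2 fits are therefore no test of a genotype difference. On the TPM scale with all lines the change was also called by limma, at -0.97 (adjusted p = 0.037). The median of all genes was shifted to -0.19 on that scale, against 0.01 in the edgeR fit. Among 58 neighbours within 10 Mb on chromosome 6 the median level was 88.4% to 120% of the 13-line median over the lines, while Cdkn1b spanned 56.2% to 187%.

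WT 2 had the most Cdkn2d of the 13 lines under either scaling. Knockout 6 was among the 2 highest lines in Cdkn1b. In Cdkn2c knockout 6 and knockout 4 were the highest, at 66.2 and 65.4 CPM, and their order turned when counts were scaled by library size alone (67.1 and 67.3 CPM). These ranks are given as levels of single lines with no test.

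**Figure D5:**
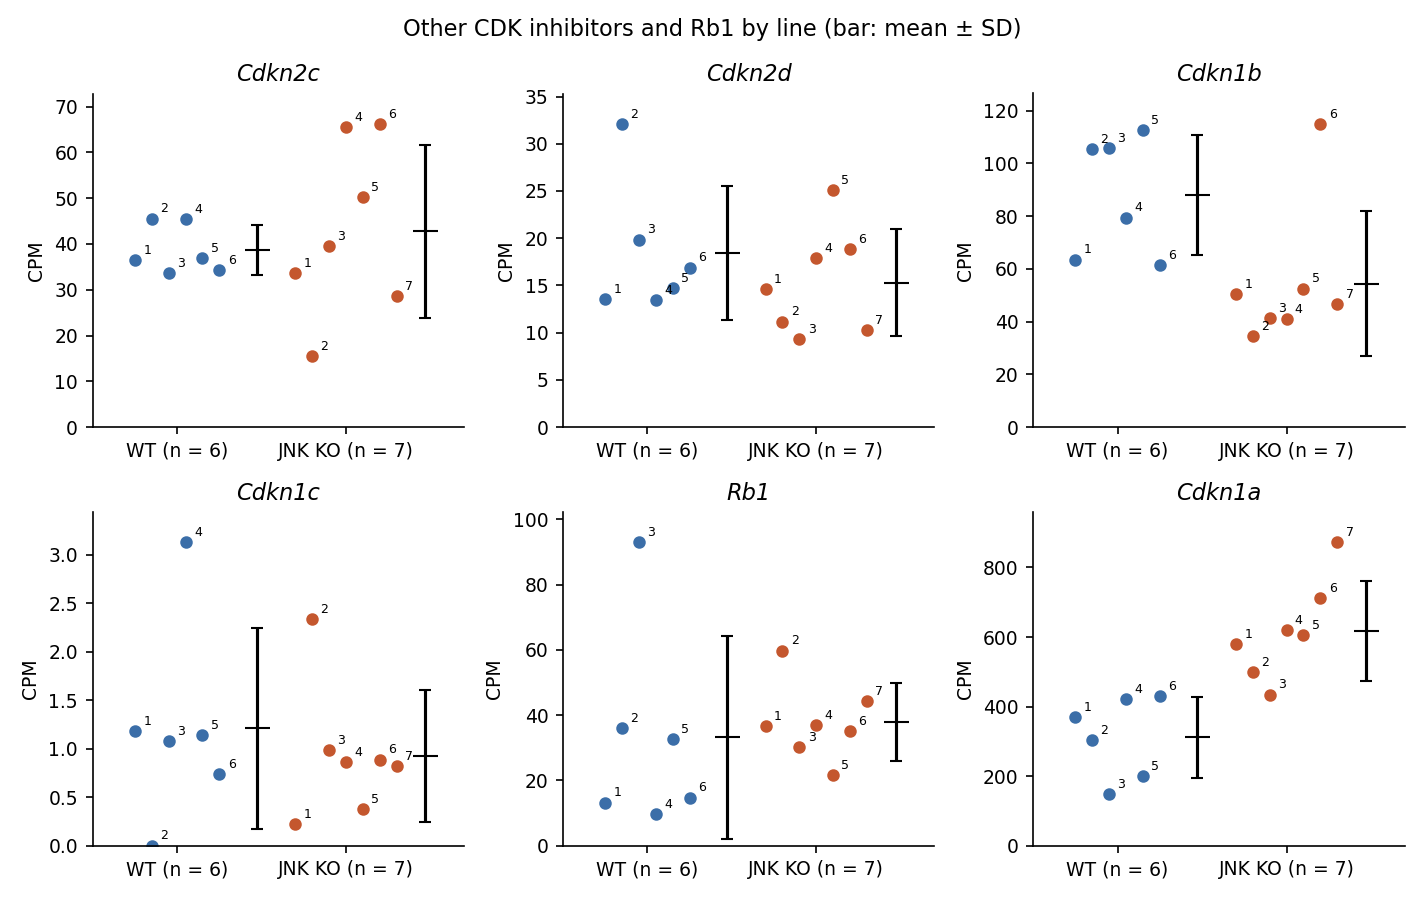
CPM of Cdkn2c, Cdkn2d, Cdkn1b, Cdkn1c, Rb1 and, for comparison, Cdkn1a in each line, numbered as in the text, with the mean and SD of 6 WT and 7 knockout lines. Cdkn1b is low in 6 knockout lines and high in knockout 6, and Rb1 is spread widest in WT lines. Cdkn1a is higher in all 7 knockout lines at this scaling, though not in TPM.

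Cdkn1c encodes p57, an imprinted inhibitor expressed from the maternal chromosome. It was barely transcribed in these lines, with 0, 1.11 and 3.13 CPM as lowest, median and highest in WT lines and 0.22, 0.86 and 2.33 CPM in knockout lines. WT 2 had 0 counts, and WT 4 had the most of all. The groups overlapped throughout, with a log2 ratio of -0.38 (SE 0.79, adjusted p = 0.80) that changed sign without WT 4, to 0.16. The genes most like it in profile were Triqk (0.80), Kdm4d (0.85) and Slc38a1 (0.90).

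Neighbours within 250 kb of Cdkn1c, part of the same imprinted domain, had their own patterns. Phlda2, an imprinted gene that limits placental growth, fell from 7.95 ± 4.49 CPM (SD, n = 6) to 2.91 ± 1.33 (SD, n = 7), a log2 ratio of -1.45 (SE 0.38, adjusted p = 0.033). Cars, the cysteinyl-tRNA synthetase gene, rose from 102 ± 18.4 to 172 ± 53.2 CPM (log2 ratio 0.76, SE 0.19, adjusted p = 0.029). Nap1l4, Slc22a18, Osbpl5, Kcnq1ot1, Tnfrsf22, Tnfrsf23 and Tnfrsf26 were not called.

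Rb1, the gene of the RB protein on which all of these inhibitors converge, was present in every line. Its levels were 9.66, 23.6 and 92.9 CPM as lowest, median and highest in WT lines and 21.6, 36.6 and 59.8 in knockout lines. WT 1, WT 4 and WT 6, at 13.2, 9.66 and 14.7 CPM, lay below every knockout line, and WT 3 lay above every one. The means were 33.2 ± 31.2 CPM (SD, n = 6) and 37.8 ± 11.9 (SD, n = 7), and the log2 ratio of 0.19 (SE 0.46, adjusted p = 0.83) was smaller than the spread of the WT lines. It rested on single WT lines, at 0.83 without WT 3 and -0.0026 without WT 4. WT 3 was also the line with the most fibroblast marker transcripts, at 321 CPM in sum, and the part of these in its Rb1 level was not tested.

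Of the genes within 250 kb of Rb1 on chromosome 14, Lpar6, Rcbtb2 and Itm2b were tested and none was called. Itm2b, a membrane protein gene, had its highest WT level in WT 3 (1211 CPM) and its lowest in WT 1, WT 4 and WT 6 (161, 212 and 315 CPM), the lines at the extremes of Rb1. Over 69 neighbours within 10 Mb the median level was 70.9% of the 13-line median in WT 1, 75.7% in WT 4, 90.7% in WT 6 and 105% in WT 3, against 37.6%, 27.5%, 42.0% and 265% for Rb1. The genes most like Rb1 in profile were Mbnl2 on chromosome 14 (0.37), Ganc (0.39) and Zfp667 (0.41).

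Around these 9 genes, 8 lists covered their partners, with 124 other genes tested. Of these, 6 rose and 2 fell in knockout lines, 6.45% of the lists against 8.51% of all genes tested, with a median log2 ratio of 0.07 beside 0.01 for all genes. The lists are described by these counts alone.

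Among 18 INK4, CIP/KIP and cyclin D or E pathway genes, which include 6 of the 9, only Cdkn1a was called by edgeR, and it rose. Over all genes tested, 8.51% were called. Cdkn1a encodes p21, the p53-induced CIP/KIP inhibitor. Its level was 312 ± 117 CPM (SD, n = 6) in WT and 617 ± 143 (SD, n = 7) in knockout lines, higher in 7 of 7 knockout lines than in any WT line, with a log2 ratio of 0.98 (SE 0.25, adjusted p = 0.031). By library size alone, knockout 3 came below WT 6 (440 against 445 CPM). In TPM knockout 5, at 387, came below WT 1, WT 4 and WT 6 (400, 446 and 423). Knockout 2 and 3, at 444 and 415 TPM, also came below WT 4. Cdkn1a was not called without WT 2 (adjusted p = 0.054), WT 5 (0.063), knockout 1 (0.052) or knockout 7 (0.061), nor without WT 2 and knockout 6 (0.074). Outside the locus, 4 genes of this list had an unadjusted p under 0.05 by edgeR, namely Cdkn1a, Cdkn1b, Ccnd2 and the kinase chaperone gene Cdc37. DESeq2 called Cdkn1a and Ccnd2 of these, and limma-voom only Cdkn1a. Ccnd2, the gene of cyclin D2, had 38.3 ± 54.6 CPM (SD, n = 6) in WT and 616 ± 828 (SD, n = 7) in knockout lines, with 4 of 7 above every WT line (log2 ratio 4.01, SE 1.48, edgeR adjusted p = 0.11). Cdk4, at a log2 ratio of 0.14 (adjusted p = 0.58), and Ccnd1, the gene of cyclin D1, at 0.06 (adjusted p = 0.90), were not called by edgeR.

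Over all genes tested, 8.51% were called by edgeR. Downstream of Rb1 this was 0 of 17 RB family and E2F genes and 0 of 24 E2F target genes, with medians of -0.03 and -0.19. Lists this short would hold few calls at that share, so 0 does not show that they were unchanged. At an unadjusted p under 0.05 there were 2 and 4, limma-voom called 0 in both lists, and DESeq2 called 1 gene, Rbl1, which is on both. The lowest p-values belonged to Rbl1, the gene of the RB relative p107, at -0.73 (adjusted p = 0.063), E2f1 at -0.63 (adjusted p = 0.17) and Uhrf1, a replication-linked methylation cofactor, at -0.68 (adjusted p = 0.13).

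Of 18 genes of the ARF, MDM2 and p53 branch, 5 rose and 0 fell by edgeR, with a median of 0.68. Over all 13058 genes tested, 4.33% rose and 4.17% fell. Npm1, the nucleolar protein that binds ARF, rose from 881 ± 127 CPM (SD, n = 6) to 1483 ± 356 (SD, n = 7), a log2 ratio of 0.75 (adjusted p = 0.019). The others besides Cdkn1a were the p53 targets Ccng1 at 1.18 (adjusted p = 0.027), Sesn2 at 1.51 (adjusted p = 0.020) and Phlda3 at 0.98 (adjusted p = 0.038). Trp53 was at 0.21 (adjusted p = 0.41) and Mdm2 at 1.17 (adjusted p = 0.054). The count fell to 2 when WT 5, knockout 1 or knockout 7 was left out, and to 0, Cdkn1a included, on the TPM scale, where the median of all genes shifted to -0.19. It was 4 without WT 2 and knockout 6.

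Of 25 tested regulators of Cdkn2a transcription, among them the Polycomb genes Bmi1 and Ezh2, 0 were called by edgeR, against 8.51% of all genes. Their median log2 ratio was 0.12. At an unadjusted p under 0.05 there were 3, limma-voom called 0, and DESeq2 called 1, Tbx3. Tbx3, a T-box repressor of the ARF promoter, was at 4.43 ± 3.07 CPM (SD, n = 6) in WT and 27.7 ± 16.6 (SD, n = 7) in knockout lines, above every WT line in 7 of 7 (log2 ratio 2.64, SE 0.80, adjusted p = 0.056). It had 0 counts in WT 2. Leaving out WT 2 and knockout 6 raised the number called from 0 to 1.

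In the 3 remaining lists edgeR called 1 gene each, while 8.51% of all genes tested were called (4.33% higher and 4.17% lower). Single calls in lists of 9 to 18 genes are near that share, and are given as values of those genes only. For Cdkn1b, 1 of 10 genes of its transcription and turnover fell. Foxo1, a forkhead factor that activates Cdkn1b, went from 102 ± 60.5 CPM (SD, n = 6) to 39.9 ± 8.76 (SD, n = 7), below every WT line in 7 of 7 knockout lines (log2 ratio -1.35, SE 0.28, adjusted p = 0.013). Of 18 methionine salvage and polyamine genes, Mtap included, 1 rose. That was Srm, spermidine synthase, whose reaction forms the substrate of MTAP, from 41.2 ± 7.39 to 91.7 ± 36.3 CPM (log2 ratio 1.15, SE 0.25, adjusted p = 0.015), with 7 of 7 knockout lines above every WT line. Of 9 genes of the Klhl9 ligase, itself included, 1 fell, the fellow adaptor Klhl13, at 16.4 ± 27.3 CPM in WT and 0.75 ± 0.85 in knockout lines (log2 ratio -4.45, SE 1.25, adjusted p = 0.043). The WT values of Klhl13 ranged from 0.47 to 71.3 CPM and only 3 of 7 knockout lines lay below all of them. It was not called by limma-voom, nor without WT 2 and knockout 6.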

How the data were processed

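RNA-seq of 13 mouse mammary tumour lines was used as deposited. The authors made expected counts per gene with RSEM after trimming with cutadapt, on mm10 (GRCm38), per the submitters' processing notes. Their versions, the aligner and the annotation were not given in the sources used here. TPM values deposited beside them were used as they stand. Of the expected counts, 4.48% were not whole (tolerance 1e-06) and were rounded; those of the 9 genes did not change.

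Genotypes were compared with edgeR 4.0.16 in R 4.3.3 (filterByExpr, TMM scaling, quasi-likelihood F test, group as the only term), with Benjamini-Hochberg adjustment over 13058 genes and a threshold of 0.05. Log2 ratios are knockout over WT. CPM uses the TMM scaling, so a floor of 3 counts is 0.0612 to 0.0811 CPM, for counting error only. Alternatives were DESeq2 1.42.0, limma 3.58.1 (voom, and log2 TPM with 1 or 0.1 added), other scalings and filters, each line left out, WT 4 and 5 summed, and, added after seeing the data, WT 2 and knockout 6 both left out. The edgeR step was tested on simulated data with 200 changed genes. Positions, and promoter sequences, are from RefSeq on GRCm38.p6; 23580 of 23845 genes matched by transcript accession.

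Members and lists were chosen with earlier results of these data known. Named besides the 9 genes were Cdkn1a, up to 4 called genes per list by adjusted p (or the 2 smallest p where none was called), the 3 nearest tested genes on each side of Cdkn2a, genes within 250 kb of Cdkn1c and Rb1, and the 3 most similar profiles. Ccnd1, Ccnd2, Cdc37, Cdk4, Trp53, Mdm2, Phlda3 and Krt7 were named after their values were seen. A gene that this rule names is not reported here.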

Additional observations from a re-analysis of the deposited data

Results flagged for a closer look

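In each gene and genotype, the gap of the highest or lowest line to its neighbour was set against the range of the group on the log2 scale (Dixon's ratio), over 18 groups of lines. Chance gives about 1 in 20 groups a line this far apart. That rate does not apply to Cdkn2a, Cdkn2b, Mtap and Klhl9, which were selected because single lines lacked their transcripts, so their values in WT 2 and knockout 6 are a description. WT 2 stood below the other WT lines in Cdkn2a (0.0468 CPM), Cdkn2b (0 CPM), Mtap (0.117 CPM), Klhl9 (0 CPM) and Cdkn1c (0 CPM). Cdkn1c differs from the rest in being low in all WT lines, with 31 to 142 counts outside WT 2. Knockout 6 stood below the other knockout lines in Cdkn2a (4.05 CPM), Cdkn2b (4.07 CPM), Mtap (16.9 CPM) and Klhl9 (5.54 CPM), and above them in Cdkn1b (115 CPM). The 4 locus genes are neighbours and are not independent of each other. Rb1, Cdkn2c and Cdkn2d had no line this far apart in either genotype.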

How the results depend on the processing

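Rounding, scaling and filters left the direction of Cdkn2a, Mtap, Klhl9, Cdkn2d and Cdkn1b as given, and so did every line left out. With limma-voom, which fits log2 counts, the locus genes had larger ratios and errors: 2.93 (SE 1.38) for Cdkn2a, 1.48 (SE 1.63) for Cdkn2b, 1.90 (SE 1.48) for Mtap and 2.29 (SE 1.73) for Klhl9. The log2 ratio with each line left out ranged from 1.91 to 2.47 for Cdkn2a, -0.18 to 0.29 for Cdkn2b, 0.49 to 1.02 for Mtap, 0.67 to 1.15 for Klhl9, 0.0087 to 0.29 for Cdkn2c, -0.43 to -0.037 for Cdkn2d, -0.98 to -0.61 for Cdkn1b, -0.80 to 0.16 for Cdkn1c and -0.0026 to 0.83 for Rb1. Cdkn2c turned to -0.13 with either pseudocount on the TPM scale (-0.125 and -0.133), Cdkn1c to 0.36 with limma-voom and 0.16 without WT 4, and Rb1 to -0.0026 without WT 4; the cause was not tested. Cdkn1b passed the threshold on log2 TPM (-0.97 and -0.99), without knockout 6 (-0.98) and without WT 2 and knockout 6 (-0.93). Knockout 6 stood apart in this gene, so the fits without it are no test of a difference. The median of all genes on the TPM scales was -0.19 and -0.23. Cdkn1c was not tested under the filter on CPM above 1.

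Of the 124 list genes, 6 rose; 11 did with DESeq2 and 2 on either TPM scale, and 3 to 7 with a line left out (3 without WT 5, knockout 1 or knockout 7). The 2 that fell became 6 and 7 on the TPM scales, 1 with limma-voom, with WT 4 and 5 summed or without WT 2 and knockout 6, and 1 to 2 with a line left out. Over all genes, 566 rose and 545 fell. DESeq2 called 1130 and 977, and log2(TPM + 1) 286 and 998. With a line left out, 324 to 649 rose and 316 to 592 fell. No paired analysis was possible because the replicate numbers follow the order of the record and pair no lines.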
